A study of Mus musculus with 6 samples.

Results

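Integrin chains and the adaptors and kinases of the focal adhesion plaque were examined as a set of 44 genes, out of 55335 genes in the deposited table. The members were taken by symbol through the Ensembl gene identifier, and they comprise 17 integrin genes (11 alpha and 6 beta chains) and 27 plaque genes. The cells were embryonic fibroblasts of the mouse (MEF), connective tissue cells that grow attached to a surface, labelled WT in both groups. The group called Ctrl held the parental cells, and the group called Confine held cells that had crossed a transwell membrane with 3 μm pores and were collected 15 h after seeding. The study compared them to find genes that accompany migration through narrow spaces. Cells that crossed were both exposed to the pores and selected by crossing, and these cannot be told apart here. The labels do not say on which surface the Ctrl cells were kept, so contact with the membrane cannot be told apart from passage either. Polyadenylated RNA was sequenced, and reads counted per gene were deposited for 3 columns per group. Confine replicates 1 and 2 did not differ in any of the 55335 genes and entered as 1 library, named Confine replicate 1, which left 3 Ctrl and 2 Confine libraries.

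Total counts ran from 22287210 to 27853805 in Ctrl and were 32537550 and 27290138 in Confine. The labels do not say whether the samples came from separate cultures, so p-values measure the spread between these libraries, which may be technical. Levels of 1 gene are given as normalized CPM (counts divided by the library total and scaled by the TMM factors of edgeR), on which 3 counts correspond to between 0.101 and 0.128. Levels of different genes are compared as RPKM, the same quantity per kilobase of exon. Of 10 fibroblast markers, Col1a1, Col1a2 and Vim were each at or above 2084 CPM in every library, whereas Thy1 and Lum, which many fibroblasts carry, were at or under 0.0851 CPM and Dcn at or under 0.912 CPM.

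Integrins are receptors of an alpha and a beta chain that span the membrane and bind matrix proteins such as fibronectin, collagens and laminins. Inside the cell, talins and kindlins bind the beta chain and switch the receptor on, and vinculin and the complex of ILK, PINCH and parvin tie it to actin. FAK (Ptk2) and Src phosphorylate the Cas scaffolds and paxillin, while zyxin, the Ena/VASP proteins and tensins act where actin bundles end. Fibroblasts use these contacts to hold on to a substrate and to pull themselves forward.

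Some integrin genes were higher and others lower in the Confine libraries, and a minority of the plaque genes differed too. Of 13 integrin genes that passed the filter on low counts, 7 were called at an adjusted p under 0.05 (edgeR's quasi-likelihood test, adjusted by Benjamini-Hochberg over 15881 genes). The laminin receptor chain Itga7, Itgb3, Itgb4 and Itgav were upregulated in Confine, and the chains Itga1, Itga3 and Itgb7 were downregulated. Of 27 plaque genes, all tested, 7 were upregulated (Lims2, Nedd9, Fermt2, Parvb, Bcar1, Tns3 and Tns1) and 1 was downregulated (Tln2). The other 19, which include Tln1, Vcl, Pxn, Ptk2, Src and Zyx, did not pass the test. Among all 15881 tested genes 23.0% were called, 12.8% as higher and 10.2% as lower. The called shares were 53.8% for the integrins and 29.6% for the plaque genes, so the plaque share lay near that background. Groups of libraries did not overlap for 9 of 13 integrins and 12 of 27 plaque genes, against 49.5% of all tested genes. With the study's cutoff of an absolute log2 fold change above 1.5 added, 4 integrins (Itga7, Itgb3, Itgb4 and Itga1) and 1 plaque gene (Lims2) were called, against 8.00% of all tested genes.

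**Figure D1:**
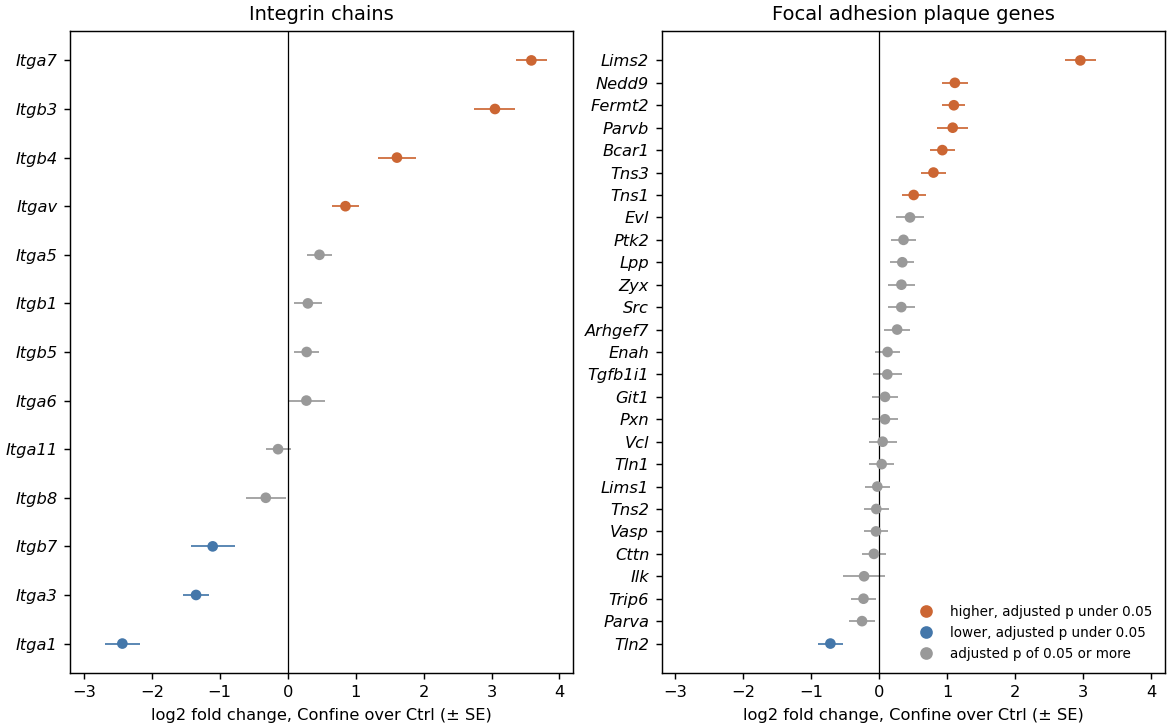
log2 fold change of Confine over Ctrl with its standard error for the 13 tested integrin genes (left) and the 27 plaque genes (right), from edgeR's fit. Coloured points passed an adjusted p of 0.05, 4 integrins and 7 plaque genes higher and 3 integrins and 1 plaque gene lower. Itga7 at 3.59 and Itga1 at -2.43 mark the ends, and the 19 plaque genes that did not pass sit between -0.25 and 0.45.

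The median log2 fold change was 0.28 over the tested integrins and 0.12 over the plaque genes, and it was -0.0021 over all tested genes. The median absolute log2 fold change was 0.85 for the integrins, 0.26 for the plaque genes and 0.39 for all genes. Without TMM, scaled by library size only, the median of all genes moved to -0.21 and that of the plaque genes to -0.09, below 0 but still 0.12 above all genes. The integrin median was then 0.07. Under that scaling the calls over all genes split into 1444 higher and 2805 lower, against 2035 and 1619 with TMM. Of the 15 called members, 10 kept the call in each of the 14 other fits (other tests, scalings, filters, a replicate block or fewer libraries), namely Itga1, Itga3, Itga7, Itgb3, Itgb4, Bcar1, Parvb, Lims2, Fermt2 and Nedd9.

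Among the alpha chains, Itga7 (chr10:128933818-128958282, GRCm38) showed the largest increase. Its product pairs with beta 1 as a laminin receptor that is abundant in muscle. Itga7 was at 3.28, 5.44 and 5.02 CPM in the Ctrl libraries and at 58.8 and 51.1 CPM in the Confine libraries. Both Confine libraries stood far above all Ctrl libraries, and the log2 fold change was 3.59 ± 0.22 (SE, adjusted p = 1.7e-09), or 12.0-fold. In bulk RNA, more cells with a transcript and more transcript per cell cannot be told apart. Itgav (chr2:83724397-83806916) encodes the alpha v chain that pairs with several beta chains in receptors for vitronectin, fibronectin and latent TGF-beta. Its levels were 99.3, 138 and 85.1 CPM in Ctrl and 179.7 and 208 CPM in Confine. The groups did not overlap, with a log2 fold change of 0.85 ± 0.20 (SE, adjusted p = 0.00494), and without Confine replicate 3 the adjusted p was 0.0939.

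The collagen receptor chain Itga1 and the laminin receptor chain Itga3 fell. Itga1 (chr13:114953096-115101964), whose product with beta 1 binds collagens, had 20.8, 22.2 and 15.0 CPM in Ctrl against 3.04 and 4.13 CPM in Confine. Both Confine libraries lay far below the Ctrl mean of 19.3 ± 3.84 CPM (SD, n = 3), and the log2 fold change was -2.43 ± 0.26 (SE, adjusted p = 1.5e-06). Itga3 (chr11:95044474-95076801) had 52.1, 44.4 and 44.5 CPM in Ctrl and 17.97 and 18.9 CPM in Confine. The libraries within each group lay close together, and Itga3 fell by 1.35 on the log2 scale (SE 0.19, adjusted p = 3.87e-05).

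The fibronectin receptor chain Itga5 had 107, 78.9 and 78.0 CPM in Ctrl and 125 and 119 CPM in Confine. Its groups did not overlap, but the log2 fold change of 0.47 ± 0.19 (SE) had an adjusted p of 0.0864. Without Ctrl replicate 1, the highest of the Ctrl libraries, it was 0.0455, whereas it was 0.112 without Ctrl replicate 2 and 0.26 without Ctrl replicate 3. Itga6, another laminin receptor chain, had a mean of 26.2 ± 12.2 CPM (SD, n = 3) in Ctrl and 31.7 ± 7.02 CPM (SD, n = 2) in Confine, groups that overlapped. The log2 fold change of 0.27 did not pass, and leaving out 1 library at a time gave values from 0.03 (without Confine replicate 3) to 0.73 (without Ctrl replicate 2 at 40.3 CPM, adjusted p = 0.00975). Itga11, a receptor chain for fibrillar collagen in fibroblasts, had means of 36.2 ± 0.676 CPM (SD, n = 3) and 32.8 ± 4.97 CPM (SD, n = 2) and did not pass the test.

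The 4 remaining alpha chains, Itga2, Itga4, Itga8 and Itga9, did not pass the filter on low counts. Itga2 had 2, 1 and 0 counts in Ctrl and 3 and 15 in Confine. Itga4 and Itga8 had between 0 and 3 counts in every library. Itga9 had 1, 11 and 2 counts in Ctrl and 0 in both Confine libraries, where 3 counts would be the limit that a count of 0 allows. These 4 genes were not tested in the filtered fit, and their counts are too low at this depth to show a difference. In the fit without the filter, which took in all 17 integrin chains, the integrin calls stayed at 4 higher and 3 lower.

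Of the 6 beta chains, Itgb3 (chr11:104608000-104670476) showed the largest change. Its product forms the alpha v beta 3 receptor for vitronectin and fibronectin and, on platelets, the fibrinogen receptor. Itgb3 had 2.00, 3.82 and 1.74 CPM in Ctrl and 15.9 and 26.1 CPM in Confine. The Confine libraries differed from each other by more than the whole Ctrl range, yet both lay above it, with a log2 fold change of 3.05 ± 0.30 (SE, adjusted p = 7e-07). Itgb4 (chr11:115974709-116008412), which pairs with alpha 6 in the hemidesmosomes of epithelia, had 2.45, 1.85 and 2.04 CPM in Ctrl and 5.37 and 7.58 CPM in Confine. It remained a scarce transcript in both groups, and its log2 fold change was 1.61 ± 0.29 (SE, adjusted p = 0.000379).

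Itgb7 (chr15:102215995-102231944), known from lymphocytes where it pairs with alpha 4 or alpha E, had 3.07, 4.95 and 3.70 CPM in Ctrl and 1.69 and 1.95 CPM in Confine. It fell by 1.10 on the log2 scale (SE 0.33, adjusted p = 0.0194). The call rested on both Confine libraries, since the adjusted p was 0.145 without Confine replicate 1 and 0.0866 without Confine replicate 3.

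Itgb1, the chain shared by most fibroblast integrins, was the most abundant integrin transcript. Its levels were 198, 258 and 165 CPM in Ctrl and 231 and 278 CPM in Confine. The groups overlapped, with a log2 fold change of 0.30 ± 0.20 (SE, adjusted p = 0.322), and without Ctrl replicate 2, the highest Ctrl library, the adjusted p was 0.0468. Itgb1 was not called without Ctrl replicate 1 or without Ctrl replicate 3. Itgb5, a partner of alpha v, had 120.1 ± 16.5 CPM (SD, n = 3) in Ctrl and 146 ± 0.0503 CPM (SD, n = 2) in Confine, with a log2 fold change of 0.28 that did not pass. Itgb8, another partner of alpha v, had a log2 fold change of -0.32 and also did not pass.

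**Figure D2:**
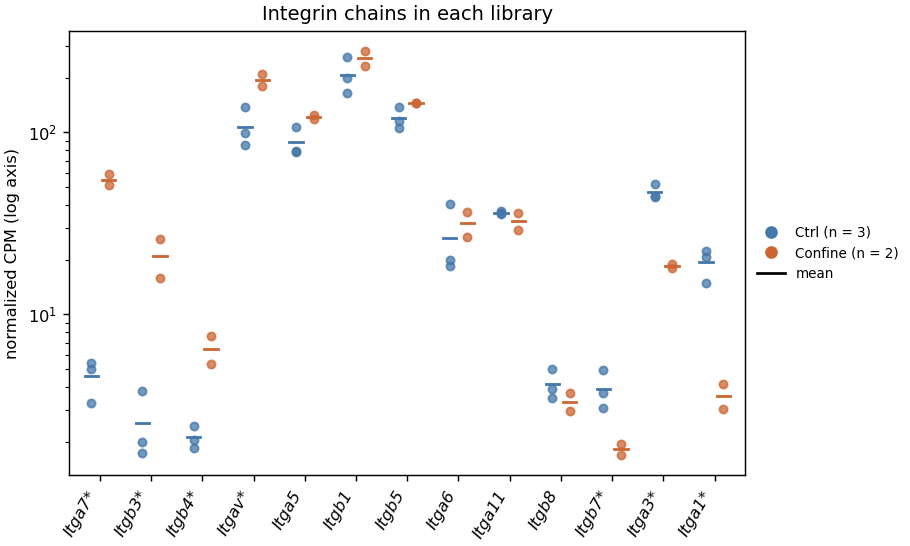
Normalized CPM (log axis) of the 13 tested integrin genes in each library, ordered by log2 fold change, with a horizontal line at the group mean and an asterisk at genes with an adjusted p under 0.05. Itga7 and Itgb3 move from single digits to a mean of 54.9 and 21.0 CPM in Confine, whereas Itgb1, Itgb5, Itga6 and Itga11 overlap or nearly meet between groups.

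The make-up of each class was described as the share of every chain in the summed RPKM of its class, a quantity that does not depend on the scaling of a library. Among the alpha chains, Itga5 held the largest share in all 5 libraries, with 37.4% ± 5.50 (SD, n = 3) in Ctrl and 39.3% ± 2.74 (SD, n = 2) in Confine, and Itgav came next in all 5. This order rests on the division by exon length. In CPM, Itgav stood above Itga5 in every library but Ctrl replicate 1, where it had 99.3 against 107 CPM. By share, Itga3 and Itga11 followed in Ctrl, at 17.3% and 14.9%. In Confine Itga3 held 5.14% and Itga11 10.1%, while the share of Itga7 was 10.8% ± 1.48 (SD, n = 2) after 1.20% ± 0.358 (SD, n = 3) in Ctrl. Itga7 stood above Itga11 in Confine replicate 1 and below it in Confine replicate 3. The share of Itga1 was 2.16% in Ctrl and 0.305% in Confine. Summed over all alpha chains, the level was 47.7 ± 4.92 RPKM (SD, n = 3) in Ctrl and 62.9 ± 2.39 RPKM (SD, n = 2) in Confine, and the groups did not overlap (two-sided exact permutation p = 0.1, the smallest possible). The beta chains summed to 87.1 ± 16.7 RPKM (SD, n = 3) and 108.8 ± 9.76 RPKM (SD, n = 2), with overlapping groups (exact permutation p = 0.3).

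Among the beta chains, Itgb1 and Itgb5 together dominated every library. The share of Itgb1 was 58.0% ± 2.15 (SD, n = 3) in Ctrl and 57.2% ± 2.42 (SD, n = 2) in Confine, and that of Itgb5 was 39.1% and 37.8%. The share of Itgb3 was 0.408%, 0.614% and 0.407% in Ctrl and 2.65% and 3.82% in Confine, still far under Itgb1 and Itgb5. Itgb4 held 0.357% in Ctrl and 0.843% in Confine, and Itgb7 1.62% and 0.603%. For Itga1, Itga2, Itga3, Itga7, Itga11, Itgb3, Itgb4, Itgb7 and Itgb8 the shares did not overlap between groups and the two-sided exact permutation p was 0.1, the smallest that 3 against 2 libraries allow. Of these, Itga2 rests on at most 15 counts in a library, and the CPM of Itga11 and Itgb8 overlapped between groups. The shares of Itgav and Itga9 did not overlap either, at exact permutation p of 0.2 and 0.3. Adjusted over 17 chains the smallest p was 0.189, so no share could pass a threshold of 0.05.

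**Figure D3:**
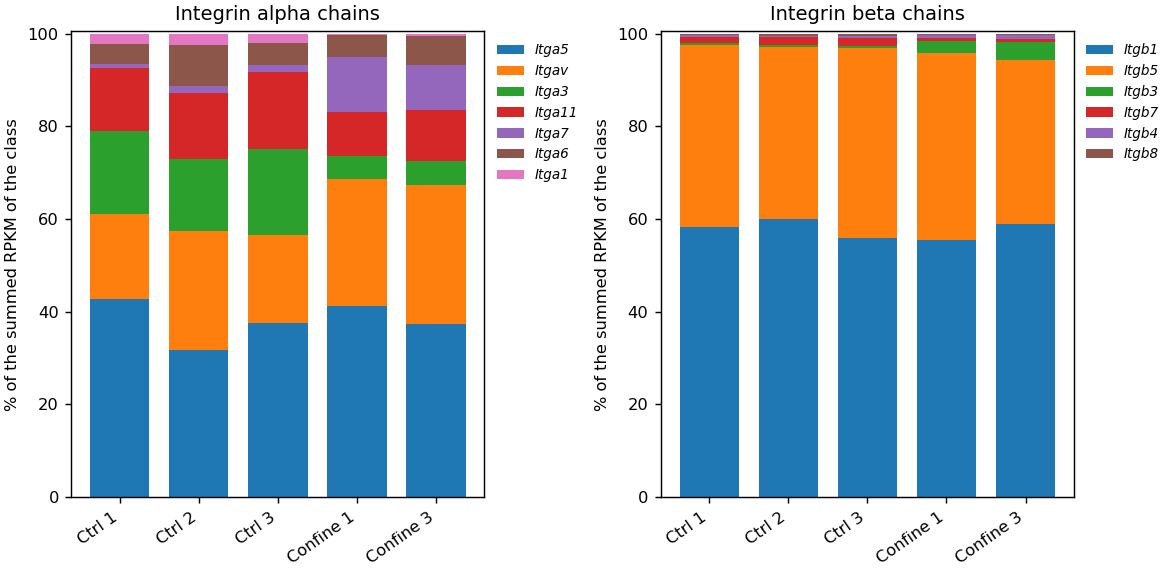
Stacked bars of the share of each chain in the summed RPKM of its class (percent, axis from 0) for the alpha chains (left) and beta chains (right), 1 bar per library; chains listed in the key are the tested ones. The band of Itga7 covers 11.9% and 9.77% of the Confine bars and 0.798% to 1.48% of the Ctrl bars, that of Itga3 5.14% and 5.13% against 15.5% to 18.6%, and Itgb1 with Itgb5 fills nearly all of every beta bar.

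Of the 4 plaque genes for talins, kindlin-2 and vinculin, Fermt2 was upregulated, Tln2 was downregulated, and Tln1 and Vcl did not pass the test. Fermt2 (chr14:45458795-45530118), kindlin-2, had 108, 109 and 105 CPM in Ctrl and 236 and 223 CPM in Confine. It varied little within either group, with a log2 fold change of 1.10 ± 0.17 (SE, adjusted p = 9.91e-05). Tln2 (chr9:67217087-67559703), the less abundant talin, had 46.2, 41.9 and 46.1 CPM in Ctrl and 25.0 and 29.3 CPM in Confine. It was lower in both Confine libraries and fell by 0.72 on the log2 scale (SE 0.19, adjusted p = 0.00815), with an adjusted p of 0.143 without Confine replicate 1. Tln1, the main talin, had 161, 163 and 129.8 CPM in Ctrl and 148 and 162 CPM in Confine, and the groups overlapped at a log2 fold change of 0.04 ± 0.18 (SE). Vcl, vinculin, had 55.0, 40.1 and 64.5 CPM in Ctrl and 56.9 and 53.2 CPM in Confine, both within the Ctrl range.

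The complex of ILK, PINCH and parvin links beta chains to actin, and it holds 1 PINCH and 1 parvin at a time. Lims2, which encodes PINCH-2, had 7.19, 4.16 and 4.47 CPM in Ctrl and 38.4 and 43.95 CPM in Confine. This was the largest change of any plaque gene, with a log2 fold change of 2.96 ± 0.23 (SE, adjusted p = 3.87e-08), or 7.78-fold. Parvb (chr15:84232043-84315688), beta-parvin, had 14.7, 24.5 and 12.9 CPM in Ctrl and 35.8 and 37.8 CPM in Confine. Its groups did not overlap despite a spread-out Ctrl, with a log2 fold change of 1.08 ± 0.23 (SE, adjusted p = 0.00205). Lims1, PINCH-1, had means of 190.3 and 187 CPM and Parva, alpha-parvin, of 96.8 and 81.2 CPM in Ctrl and Confine, and neither passed the test. Ilk was at 4.61 and 3.95 CPM, and its counts are uncertain, since 76.7% of its exon bases are also covered by exons of Taf10 on the opposite strand.

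Of the kinases and Cas scaffolds, both scaffolds were upregulated and neither kinase passed. Nedd9 (chr13:41309581-41487362), also known as HEF1, had 21.7, 16.0 and 17.3 CPM in Ctrl and 40.8 and 38.6 CPM in Confine, with a log2 fold change of 1.11 ± 0.19 (SE, adjusted p = 0.000257). Bcar1 (chr8:111710474-111743809), p130Cas, had 99.5, 85.6 and 77.5 CPM in Ctrl and 175 and 158 CPM in Confine, with a log2 fold change of 0.93 ± 0.18 (SE, adjusted p = 0.00085). For both scaffolds, each Confine library exceeded all Ctrl libraries by more than the range within Ctrl. Ptk2, which encodes FAK, had 32.4, 36.4 and 32.4 CPM in Ctrl and 43.6 and 42.8 CPM in Confine. The groups of Ptk2 did not overlap, but the log2 fold change of 0.36 ± 0.18 (SE) had an adjusted p of 0.165. Src had means of 31.7 ± 7.18 CPM (SD, n = 3) and 39.7 ± 0.330 CPM (SD, n = 2), with an adjusted p of 0.276, which was 0.0295 without Ctrl replicate 2, the highest Ctrl library. It was not called without Ctrl replicate 1 or without Ctrl replicate 3.

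None of the 4 genes around paxillin passed the test. Pxn, paxillin, had 22.9, 19.2 and 20.8 CPM in Ctrl and 20.2 and 24.2 CPM in Confine, and the groups overlapped. Its relative Tgfb1i1, Hic-5, had means of 123 ± 32.8 CPM (SD, n = 3) and 133 ± 10.5 CPM (SD, n = 2). Git1 and Arhgef7, which encode the GIT and beta-PIX partners of paxillin, had log2 fold changes of 0.09 and 0.26.

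None of the 6 genes of the zyxin family and of Ena/VASP passed either. Zyx, zyxin, had 184, 175 and 133 CPM in Ctrl and 229 and 182 CPM in Confine, so Confine replicate 3 lay inside the Ctrl range. Lpp, a zyxin relative, had 366 ± 33.3 CPM (SD, n = 3) in Ctrl and 463 ± 20.7 CPM (SD, n = 2) in Confine, with an adjusted p of 0.183. Trip6, another relative, had the highest level of all members per length, 99.5 RPKM in Ctrl and 84.7 RPKM in Confine. Vasp and Enah, which extend actin filaments, had log2 fold changes of -0.05 and 0.12, and Evl of the same family had 0.45 with an adjusted p of 0.125 and groups that did not overlap. Without Ctrl replicate 2, the highest Ctrl library, the adjusted p of Evl was 0.0467, but Evl was not called without Ctrl replicate 1 or without Ctrl replicate 3.

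Of the tensins, which bind beta chains and actin, Tns3 and Tns1 were upregulated. Tns3 (chr11:8431652-8664535) had 53.7, 65.7 and 47.8 CPM in Ctrl and 105 and 89.3 CPM in Confine. Its groups did not overlap, with a log2 fold change of 0.80 ± 0.19 (SE, adjusted p = 0.0044), and the adjusted p was 0.0942 without Confine replicate 1. Tns1 (chr1:73910231-74124449) had 102, 125 and 116 CPM in Ctrl and 157 and 168 CPM in Confine. The log2 fold change of Tns1 was 0.51 ± 0.18 (SE) at an adjusted p of 0.046, and it lost the call without any 1 library other than Ctrl replicate 2, with adjusted p between 0.106 and 0.254. It also lost the call with RLE size factors (adjusted p = 0.0518), with library size alone (0.238) and without the filter on low counts (0.0658). Tns2 and the actin-binding Src substrate Cttn, cortactin, had log2 fold changes of -0.04 and -0.08 and did not pass.

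**Figure D4:**
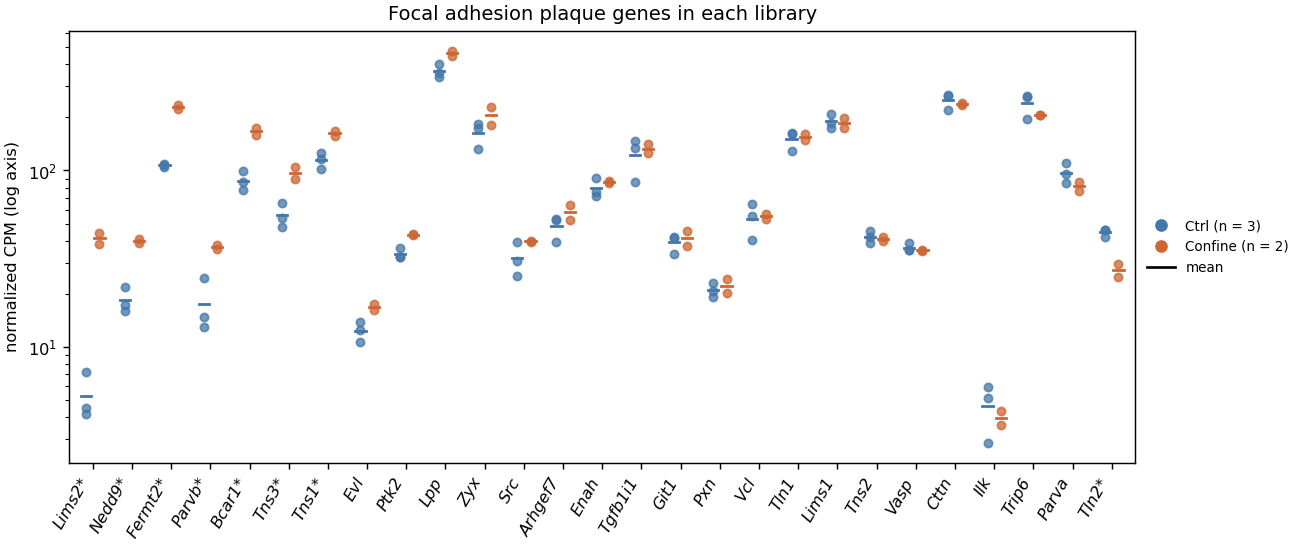
Normalized CPM (log axis) of the 27 plaque genes in each library, ordered by log2 fold change, with a horizontal line at the group mean and an asterisk at genes with an adjusted p under 0.05. Lims2 moves from a mean of 5.27 to 41.2 CPM, and from Enah to Vasp the libraries of both groups overlap.

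Several plaque proteins come as pairs of related genes, and the log2 ratio of their RPKM within each library describes which of the pair was more abundant. Lims1 exceeded Lims2 by a log2 ratio of 4.02, 4.71 and 4.88 in Ctrl and of 1.70 and 1.30 in Confine. Parva exceeded Parvb by 1.70, 0.76 and 1.52 in Ctrl, whereas in Confine the ratio was 0.06 and -0.19, about equal per kilobase of annotated exon. Without division by exon length, Parva stayed above Parvb in Confine, at 85.9 and 76.6 CPM against 35.8 and 37.8 CPM. The two-sided exact permutation p of this pair was 0.2. Tln1 exceeded Tln2 by a mean of 2.66 ± 0.24 (SD, n = 3) in Ctrl and 3.42 ± 0.07 (SD, n = 2) in Confine. The ratio of Vasp to Evl was 1.74 in Ctrl and 1.24 in Confine, and that of Tns1 to Tns3 was 0.53 and 0.23. The ratios of Bcar1 to Nedd9 (2.75 and 2.56) and of Pxn to Tgfb1i1 (-3.07 and -3.14) lay closer together. Over these 7 pairs the two-sided exact permutation p was 0.1 at the smallest, which 3 against 2 libraries cannot go below, and 0.175 after adjustment over the pairs.

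Upstream sequence of RefSeq (GRCm38.p6) was found for 33 of the 44 members, in 43 windows of 250 bases before a start site. It is shown for called members past an absolute log2 fold change of 1, at the start nearest the annotated one and without bases inside annotated exons, where at least 100 bases were left, so that upregulated and downregulated members can be read side by side. Capitals mark matches to GGGCGG, the binding box of the Sp1 family, on either strand, or to the CArG box bound by SRF, a factor known for driving adhesion and actin genes.
Fermt2, chr14:45530119-45530315, minus strand: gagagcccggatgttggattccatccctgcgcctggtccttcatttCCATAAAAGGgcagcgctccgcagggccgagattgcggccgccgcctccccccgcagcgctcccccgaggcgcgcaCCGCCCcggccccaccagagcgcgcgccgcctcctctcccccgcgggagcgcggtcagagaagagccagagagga
Parvb, chr15:84231793-84232042, plus strand: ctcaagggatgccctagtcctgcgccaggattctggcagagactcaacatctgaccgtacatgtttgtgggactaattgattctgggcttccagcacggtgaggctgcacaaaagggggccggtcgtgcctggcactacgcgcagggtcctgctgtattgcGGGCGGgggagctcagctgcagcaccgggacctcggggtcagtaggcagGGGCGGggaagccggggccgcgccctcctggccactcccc
Itga1, chr13:115101965-115102214, minus strand: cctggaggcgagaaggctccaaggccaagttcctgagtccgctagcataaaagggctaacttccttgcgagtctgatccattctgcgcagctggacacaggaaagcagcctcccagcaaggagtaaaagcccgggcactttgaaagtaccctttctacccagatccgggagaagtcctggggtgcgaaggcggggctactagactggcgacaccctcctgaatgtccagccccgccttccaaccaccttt
Itga3, chr11:95076802-95076964, minus strand: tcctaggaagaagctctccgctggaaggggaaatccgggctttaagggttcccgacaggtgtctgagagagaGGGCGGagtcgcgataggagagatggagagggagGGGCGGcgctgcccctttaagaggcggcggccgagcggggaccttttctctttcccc
Itgb7, chr15:102231945-102232185, minus strand: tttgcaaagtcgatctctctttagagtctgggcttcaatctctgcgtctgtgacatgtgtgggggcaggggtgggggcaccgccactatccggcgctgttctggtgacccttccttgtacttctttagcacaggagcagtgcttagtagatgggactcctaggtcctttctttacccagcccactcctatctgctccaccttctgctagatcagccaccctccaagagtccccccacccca
The stretch shown for Fermt2 holds 1 CArG box, 204 bases before the RefSeq start, and 1 GGGCGG. Those shown for Parvb and Itga3 hold 2 GGGCGG each, and those for Itga1 and Itgb7 hold neither motif. The counts that follow are over full windows of 250 bases, which also take in bases left out above. A member counts where any of its windows holds the motif, and some members have several, whereas the share of all windows is per single window, so the counts and the shares are not like for like. The called members Itga7, Itgb3, Itgb4, Lims2 and Tln2 are without a window. Over the members with a window, GGGCGG was found in 6 of 7 upregulated, 1 of 3 downregulated and 13 of 19 genes that did not pass, and in 32.7% of 32851 windows of the same length. The CArG box was found for Fermt2 and for Vcl, which did not pass, and in 1.47% of all windows. A hypoxia box core (ACGTG) was found in 2 of 7 upregulated, 0 of 3 downregulated and 5 of 19 members that did not pass, and in 16.6% of all windows, and an AP-1 site (TGANTCA) in 0 of 7, 0 of 3 and 1 of 19, and in 6.75% of all windows. All motifs were searched on both strands, and no match overlapped another in the windows shown. The matches are letters in a window and not binding sites, and the motifs were chosen with the results known.

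The surroundings of the members were read from lists of other integrin chains, other plaque genes and integrin ligands. Of 10 other integrin chains 4 were tested, and Itgb2 and Itga2b were upregulated. Among all tested genes 12.8% were called as higher. Itgb2, the beta chain of leukocyte integrins, had 0.725, 0.756 and 0.765 CPM in Ctrl and 2.26 and 1.99 CPM in Confine, with a log2 fold change of 1.5 (adjusted p = 0.00898). Itga2b, the platelet partner of Itgb3, had 5.25, 5.18 and 8.80 CPM in Ctrl and 8.24 and 16.2 CPM in Confine, so the groups overlapped, with a log2 fold change of 0.93 (adjusted p = 0.0268).

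Of 58 tested other plaque genes, 12 were upregulated and 3 downregulated, with a median log2 fold change of 0.30. The share called was 25.9%, near the 23.0% of all tested genes. The largest increases were those of the proteoglycan co-receptor Sdc4, syndecan-4, and the LIM protein Tes, testin. Sdc4 had 2699, 2836 and 2048 CPM in Ctrl and 11536 and 10945 CPM in Confine, a log2 fold change of 2.15 ± 0.19 (SE, adjusted p = 1.33e-07). Tes had 27.4, 35.4 and 33.1 CPM in Ctrl and 109.5 and 105 CPM in Confine, a log2 fold change of 1.75. Tns4, a tensin that lacks the actin-binding part, and Kank3 had log2 fold changes of 1.66 and 1.27. The adaptor Sorbs2 and Arhgef6, the alpha-PIX relative of Arhgef7, fell by 1.99 and 1.92 on the log2 scale.

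Of 25 tested integrin ligands, 14 were upregulated and 2 downregulated, with a median log2 fold change of 0.66. The share called was 64.0%, against 23.0% of all tested genes. The laminin chain Lama4, the matricellular Ccn2, the collagen Col3a1, Tgfb1, tenascin Tnc and fibronectin Fn1 had log2 fold changes of 2.84, 2.24, 2.21, 1.60, 1.30 and 1.04. Fn1, the ligand of alpha 5 beta 1, had 772, 877 and 655 CPM in Ctrl and 1531 and 1627 CPM in Confine. Postn, periostin, and Ltbp1, which holds latent TGF-beta, were downregulated with log2 fold changes of -0.96 and -0.59. Vtn, vitronectin, and Lama1 had 0 counts in every library.

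**Figure D5:**
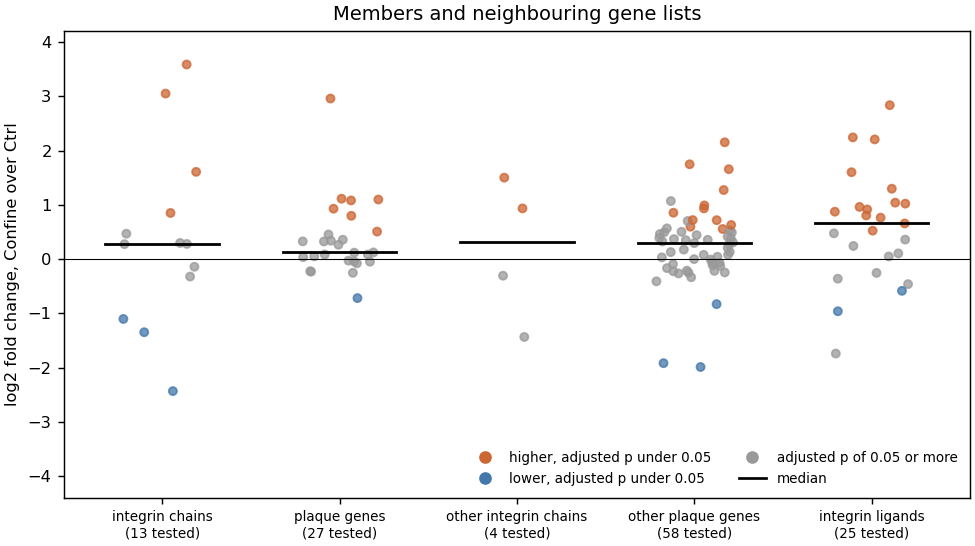
log2 fold change of Confine over Ctrl for every tested gene of the integrin chains, the plaque genes and 3 neighbouring lists, with a line at the median of each list and colours for an adjusted p under 0.05; the horizontal spread carries no value. The medians are 0.28, 0.12, 0.31, 0.30 and 0.66 from left to right, and the integrin chains reach from -2.43 to 3.59.

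Several called integrins are known from other cell types, so markers of these types were read in the same libraries. Muscle markers summed to between 4.88 and 6.60 CPM in Ctrl and 13.6 and 16.1 CPM in Confine. Of the 7, Des and Acta1 were upregulated with log2 fold changes of 1.43 and 1.19, and the defining gene Myod1 was at 0 in every library, with Myog at or under 0.0378 CPM. Epithelial markers, 8 genes, summed to between 0.449 and 0.869 CPM in Ctrl and 4.02 and 8.78 CPM in Confine, nearly all of it Krt19 (log2 fold change 4.84), with Epcam at 0 and Cdh1 at or under 0.0425 CPM.

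Leukocyte markers, 10 genes, summed to between 7.995 and 9.12 CPM in Ctrl and 20.6 and 27.9 CPM in Confine. Cd68, Itgb2 and Csf1r were upregulated and Lyz2 was downregulated, at log2 fold changes of 2.67, 1.5, 1.45 and -2.64. The defining Ptprc and Itgam were at or under 0.0691 CPM. Platelet markers, 5 genes, summed to between 10.3 and 16.0 CPM in Ctrl and 10.4 and 17.8 CPM in Confine, with Itga2b upregulated and Pf4 and Ppbp downregulated with log2 fold changes of -1.93 and -1.74, and Gp1ba at or under 0.302 CPM. Endothelial markers, 7 genes, summed to between 0.595 and 1.36 CPM in Ctrl and 2.43 and 2.70 CPM in Confine, with Vwf upregulated (2.64), and Pecam1 and Cdh5 at or under 0.302 CPM. Fibroblast markers, 10 genes read beside them, summed to between 8091 and 8830 CPM in Ctrl and 14200 and 14880 CPM in Confine. Col3a1, Vim, Pdgfra and Col1a1 were upregulated, at log2 fold changes of 2.21, 0.97, 0.84 and 0.66, and 0 were downregulated. The share called was 57.1% of 7 tested, against 23.0% of all tested genes. The part of these marker genes in the integrin results was not tested.

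Counting can blur members whose exons overlap other genes. Exons of 12 members overlap another gene, most of all Ilk (Taf10 and Rrp8) and Vcl, of whose exon bases 25.5% are shared with Ap3m1 on the opposite strand. The libraries kept the strand, but whether the counting used it is not given in the sources used here, and without it such reads cannot be told apart. Among the called members the shared part was 6.14% of exon bases or less. Itga7 shares 9 bases with Mettl7b. Of the called members, Tln2, Parvb and Fermt2 hold stretches of at least 100 bases that match other genes at 95% identity or more, the longest of 146, 191 and 130 bases, so some of their reads may be uncertain.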

How the data were processed

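RNA-seq of mouse embryonic fibroblasts (MEF) was analysed from the table of raw read counts per gene that the authors deposited, without normalization. Per the labels, mRNA was purified by polyT and the libraries were made with dUTP in the second strand. The submitters' processing notes name Trim Galore 0.6.10, HISAT2 2.1.0, SAMtools 1.5, featureCounts and the build mm10, and the strand setting of the counting is not given in the sources used here. Of the 6 columns 0 were left unused, and the identical columns of Confine replicates 1 and 2 entered as 1 library.

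Gene identifiers were matched to GENCODE M21 (GRCm38), 55154 of 55335 without their version. The filter filterByExpr left 15881 genes. Ctrl and Confine were compared by edgeR 4.0.16 (R 4.3.3) with its quasi-likelihood test on TMM-scaled counts and no block for the replicate number. Calls used a threshold of 0.05 on p-values that the Benjamini-Hochberg method adjusted over these genes. Residual degrees of freedom were 3, with 14.8 prior ones at the median, and the script was tested on simulated data. There, 200 of 15881 genes were set to change, against 3654 called in the real libraries. Of those set to change by 1 on the log2 scale, 53% were called in the right direction, and 86% of those set to change by 2. These rates need not hold where more genes change. Of the simulated calls, 7.33% were genes left unchanged. RPKM used the union of exon bases. Shares and ratios were compared by two-sided exact permutation (smallest p of 0.1). Near-identical copies were searched with blastn 2.17.0. Molecular identifiers were not used, so reads are not independent molecules and floors of 3 counts reflect counting error alone.

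Every member is accounted for. Values in each library are given for called members and for Itga5, Itgav, Itgb1, Itgb3, Tln1, Vcl, Pxn, Ptk2 and Zyx. From neighbouring lists, at most 6 called genes with the largest absolute log2 fold change are named, and from marker lists the called and the 2 defining genes. Postn, Ltbp1, Vtn, Lama1, Thy1, Lum and Dcn were named after their values were seen. The members and lists were chosen with earlier results of these data known. Alternatives were DESeq2 1.42.0, limma-voom (limma 3.58.1), other normalizations and filters, the cutoff of 1.5, the repeated column counted as a sample, a block for the replicate number, and fits without 1 library at a time.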

Additional observations from a re-analysis of the deposited data

How the results depend on the processing

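The members called with TMM and edgeR were the same with DESeq2, limma-voom and a minimum of 10 counts in every library. RLE size factors, library size alone and no filter on low counts each cost the call of Tns1 only. Counting the identical columns as separate samples, which enters 1 library as 2, added calls for Itga5, Ptk2, Lpp and Evl. It gave 5 integrins and 10 plaque genes higher. Over all genes, 2035 higher and 1619 lower became 2805 lower with library size alone, 2456 lower with the identical columns counted as separate samples, and 777 higher and 494 lower with an absolute log2 fold change above 1.5. That cutoff left 1 downregulated integrin, 1 upregulated and 0 downregulated plaque genes. Without each library in turn, the number over all genes ran from 1198 to 2429 higher and 847 to 2018 lower, that of the integrins from 3 to 6 higher and 2 to 3 lower, and that of the plaque genes from 5 to 9 higher and 0 to 1 lower. The lowest numbers for all genes came without a Confine library, which leaves 1 in that group, assumed to vary like the others.

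The labels give replicate numbers and do not say whether samples with equal numbers belong together. The difference between numbers in Ctrl and Confine had a correlation across genes of 0.05 or -0.05, depending on which number the repeated library took. That correlation rests on a single difference in each group, so it cannot decide whether the samples were paired. With the replicate block and the library as number 1, 6 integrins were higher, 3 lower, 10 plaque genes higher and 1 lower, and 2640 genes were higher and 2293 lower. As number 2, 4 integrins were higher, 3 lower, 6 plaque genes higher and 0 lower, and 1448 genes were higher and 1080 lower. As number 2, Tln2 (log2 fold change -0.70, adjusted p = 0.0574) and Tns1 (0.43, adjusted p = 0.32) were not called, and as number 1 the members Itga6, Itgb1, Ptk2, Src and Evl were. That fit has 1 residual degree of freedom.

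Directions turned only among members that did not pass the test. With library size alone, log2 fold changes turned to -0.17 for Tln1, -0.16 for Vcl, -0.12 for Pxn, -0.086 for Tgfb1i1, -0.13 for Git1 and -0.088 for Enah. With the replicate block they turned to -0.11 (Vcl), 0.014 (Tns2) and -0.085 (Tgfb1i1) as number 1, and to 0.044 (Ilk) and -0.018 (Git1) as number 2. Without each library in turn, the ranges that cross 0 were -0.31 to 0.0053 for Itga11, -0.078 to 0.098 for Tln1, -0.12 to 0.20 for Vcl, -0.050 to 0.21 for Pxn, -0.13 to 0.070 for Lims1, -0.11 to 0.014 for Tns2, -0.084 to 0.26 for Tgfb1i1 and -0.062 to 0.22 for Git1.

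Of the differences in share, in percentage points, that of Itga5 turned to -0.27 without division by exon length. Without each library in turn, the difference ran from -0.93 to 4.57 for Itga5, -1.30 to 0.97 for Itga6, -2.54 to 0.88 for Itgb1 and -3.64 to 1.18 for Itgb5, and the difference of the log2 ratio of Pxn to Tgfb1i1 from -0.28 to 0.14. The differences of the other shares and ratios kept their sign under every alternative run, except that of Itga4, which was 0 without Ctrl replicate 2. The cause of these shifts was not tested. Depth limits the alpha chains Itga2, Itga4, Itga8 and Itga9, which had at most 15 counts in any library.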
